A study of Homo sapiens with 9 samples.

Results

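The genes described here were the FGF receptors *FGFR1*, *FGFR2*, *FGFR3*, *FGFR4* and *FGFRL1* and the FGF ligands *FGF1*, *FGF2*, *FGF5*, *FGF9* and *FGF18*, which are 10 of the 60708 genes counted. They were chosen by name, and the rule uses no measured value, although earlier results of these data were known. FGF receptors are tyrosine kinases of the cell surface. A secreted ligand, held by heparan sulfate chains, pairs the receptors, which then phosphorylate each other and the docking protein FRS2 and start the RAS-ERK, PI3K and phospholipase C pathways. *FGFRL1* has an FGF-binding ectodomain without the kinase. In the mammary gland, FGF signals from the stroma are known for their part in branching of the ducts, and both receptors and ligands are known to be altered in breast cancers.

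The data were 9 RNA-sequencing libraries labelled as MDA-MB-231, an established human triple-negative breast cancer line of the basal, mesenchymal type. The 3 WT libraries were labelled as unedited cells, and the 3 CS16 and 3 CS19 libraries as *SNAI1*-KO cells of clones #16 and #19, which makes 6 libraries labelled *SNAI1*-KO. *SNAI1* encodes a zinc finger repressor that drives epithelial-mesenchymal transition. According to the study's methods, the knockout cells came from transfection of Cas9 and repair plasmids with guides to *SNAI1*, puromycin selection and growth of single colonies. CS16 and CS19 are thus a single clone each. All cells were grown in DMEM with 10% fetal bovine serum and antibiotics and received no treatment. Counted read pairs per library ranged from 19527195 to 28627777. The limit that a count of 0 allows, 3 counts, stood for 0.0982 CPM in CS19-3 to 0.171 CPM in WT-2. CPM are counts scaled to a common library size. These limits and the intervals given with ratios cover counting error only, as no molecular identifiers were counted. The labels do not say whether the libraries of a group came from separate cultures, so p-values measure the spread between these libraries, which may be technical.

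Some facts about the libraries come before the results. First, *SNAI1* was not lower in the libraries labelled *SNAI1*-KO. Its counts in replicates 1 to 3 were 16, 38 and 21 in WT, 26, 40 and 49 in CS16 and 57, 94 and 94 in CS19. *SNAI1* stood at 1.34 ± 0.727 CPM in WT, 1.71 ± 0.379 in CS16 and 3.25 ± 0.757 in CS19 (SD, n = 3 each), and *SNAI1*-KO differed from WT by 0.89 ± 0.42 (SE) on the log2 scale (Benjamini-Hochberg adjusted p = 0.0838, edgeR's quasi-likelihood test). CS19 alone was higher than WT by 1.32 ± 0.42 (edgeR adjusted p = 0.0310). Without the library WT-2, described after the markers, the log2 fold change of *SNAI1*-KO was 1.40 (edgeR adjusted p = 0.0146). Gene counts take in every exon, and whether the targeted bases were present in the reads was not analysed here. The study itself reported deletions at the *SNAI1* locus in RNA-sequencing reads of the knockout cells. It also reported lower RT-qPCR levels of the *SNAI1* exons and no detectable SNAI1 protein in both clones.

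Second, markers of the line differed between the labels. *CDKN2A*, *CDKN2B* and *MTAP*, neighbours on 9p that MDA-MB-231 is known to lack, had 0 counts in all WT libraries, while their summed level was 175.1, 168.6 and 172.5 CPM in CS16 and 164.0, 181.9 and 164.9 CPM in CS19, with *MTAP* the most abundant. A gene was called when its log2 fold change was at least 2 in either direction and its Benjamini-Hochberg adjusted p in edgeR's quasi-likelihood test was below 0.05. Of 8 markers of basal, mesenchymal breast lines, 7 were tested and 6 were called lower in the libraries labelled *SNAI1*-KO, beside 14.3% of the 19631 genes tested. Their summed level was 5310, 6837 and 5638 CPM in WT, led by *AXL*, against 383.2, 392.2 and 361.3 CPM in CS16 and 336.8, 341.3 and 335.8 CPM in CS19, led by *VIM*. *CD44*, which defines such lines, had 12765, 13853 and 11142 counts in WT and 2 counts in the 6 libraries labelled *SNAI1*-KO together. The part of these differences in the results on FGF genes was not tested, and the *SNAI1* genotype, the growth from single cells and these differences cannot be told apart in this design. Whether the libraries labelled *SNAI1*-KO came from the same line as the WT libraries was not tested, and every comparison below is one between libraries as labelled.

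Of 10 luminal mammary markers, 7 were tested, 2 were called higher and 5 lower. Their summed level was 1448 to 2126 CPM in WT, led by *KRT8*, and 70.4 to 118.2 CPM in the others, led by *KRT18*, where *TFF1* was at 0. Of 6 neural markers, 4 were tested, and 3 (*NEFL*, *NEFM* and *SYP*) were called higher and none lower. Their summed level was 2.02 to 4.56 CPM in WT, where *NEFL*, *NEFM* and *STMN2* were at 0, and 129.8 to 179.1 CPM in the others, led by *NEFL*. *STMN2* was at 0 in the others as well, except for 4 counts in CS16-1, and *INA* had at most 12 counts in any library. Of 8 embryonic kidney markers, 7 were tested, 3 were called higher and 1 lower, and *PAX2* and *SALL1* were at 0 in all WT libraries. *PAX2* had only 3 to 6 counts in each of the others and was not tested. *PAX8*, the 1 called lower, had 244, 452 and 202 counts in WT and 2 counts in the others together. Of 6 fibroblast markers, 1 was called higher and 2 lower, with sums of 58.4 to 127.3 CPM in WT led by *COL1A2*, 62.1 to 66.6 in CS16 and 10.2 to 12.5 in CS19, both led by *COL3A1*, and *COL1A2* at 0 in both clones. Of 4 prostate markers, 2 were tested and both were called lower. The single endothelial marker tested of 3 was called lower (5.39 to 6.27 CPM, led by *PECAM1*, against 0.147 to 0.434 CPM, led by *VWF*). Of 5 melanocytic markers, 1 was called higher, with sums of 29.0 to 42.9 CPM against 21.1 to 26.9 CPM, led by *MITF*, and *TYR* at 0 in every library. Of the genes called, 3 basal mesenchymal, 4 luminal, 2 neural, 3 embryonic kidney, 3 fibroblast, 1 prostate, 1 endothelial and 1 melanocytic marker passed the filter on low counts only through the group in which they were high. The 5 haematopoietic and 4 hepatocyte markers were too low to be tested, with sums of at most 0.873 and 0.542 CPM in any library.

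Last, WT-2 was unlike the other WT libraries. The Pearson correlation of log2 CPM was 0.990 between WT-1 and WT-3 but 0.954 and 0.949 between WT-2 and these, while the pairs within CS16 and CS19 lay between 0.990 and 0.993. Values without WT-2 are given beside named results that changed their side of the threshold or moved by more than 1.5 times. Without WT-2, 4 embryonic kidney and 4 neural markers were called higher. Of the luminal markers 8 were then tested, and *GATA3* lost its call (-1.95), while the counts called in each marker list other than the embryonic kidney and neural ones were as given. No 2 libraries of 1 group agreed within sampling noise, the closest of these 9 pairs being CS19-1 and CS19-3, whose chi-square over its degrees of freedom was 5.32.

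Of the 10 genes, 9 had enough counts to be tested in *SNAI1*-KO against WT, and *FGF18* did not. The filter asks for about 10 counts in at least 3 libraries, and *FGFR2*, *FGF1*, *FGF2* and *FGF9* passed it only through the group in which they were high, so the counts that follow are a description. Called higher were 5 of the 9, namely *FGFR2*, *FGFR3*, *FGFR4*, *FGF2* and *FGF9*, where 12.6% of the 19631 genes tested were called higher. Called lower were *FGF1* and *FGF5*, where 14.3% of all genes were called lower. *FGFR1* and *FGFRL1* were lower by less than the fold cut-off, and all 9 genes had an adjusted p below 0.05, as did 63.7% of all genes. Without WT-2, 5 were again called higher and 2 lower. The 6 libraries labelled *SNAI1*-KO did not overlap with the 3 WT libraries for any of the 9, which was so for 58.3% of all genes. Of the 5 genes that would have passed the filter in either group, 2 were called higher (*FGFR3* and *FGFR4*) and 1 lower (*FGF5*). In bulk RNA, fewer cells that hold a transcript and less of it per cell cannot be told apart.

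The plot of CPM by library gives the values that follow, and the plot of fold changes gives the comparisons.

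**Figure D1:**
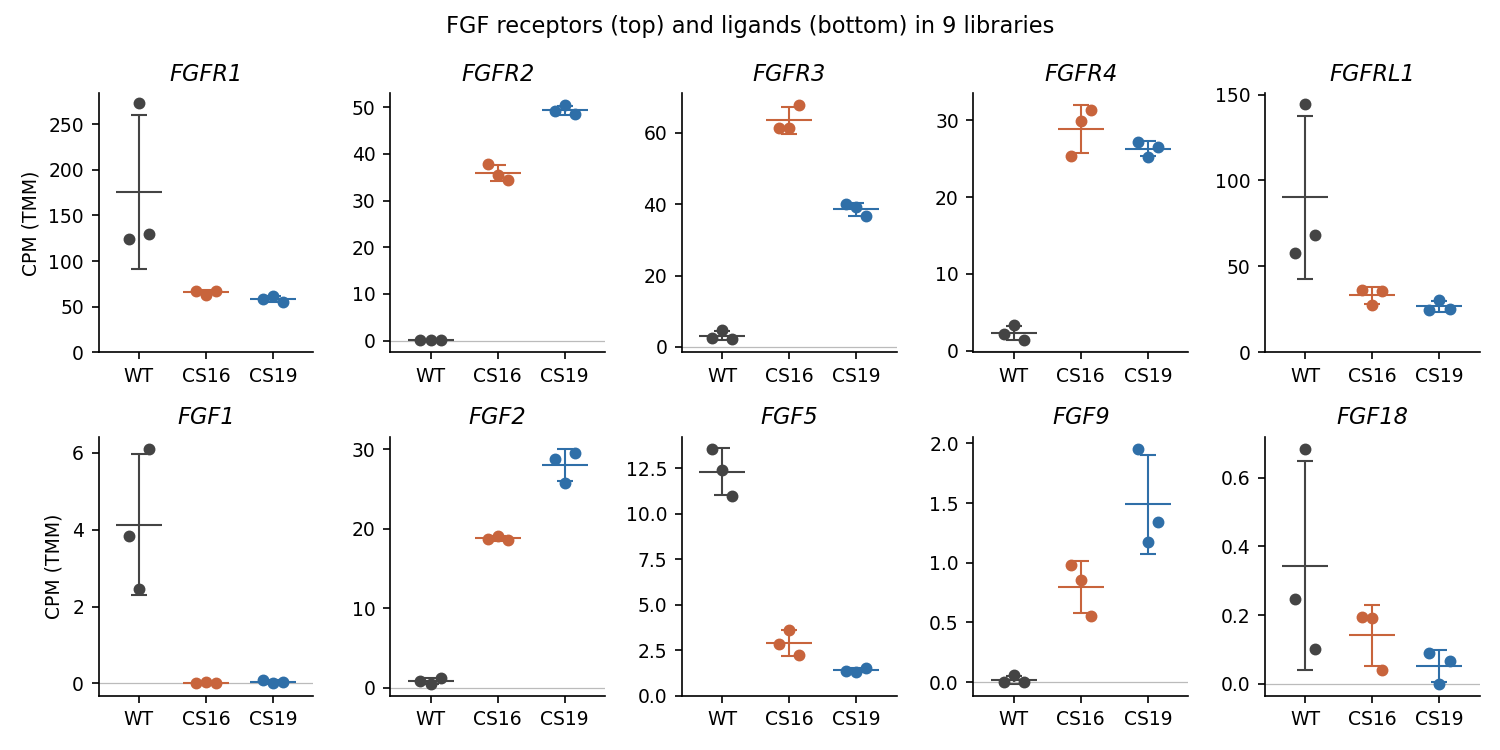
CPM (TMM-normalized, vertical axes include 0, own scale in each panel) of the 5 FGF receptors (top row) and 5 FGF ligands (bottom row) in the 3 WT, 3 CS16 and 3 CS19 libraries, with 1 point per library and bars for mean ± SD. *FGFR2*, *FGFR3*, *FGFR4*, *FGF2* and *FGF9* are higher in all 6 libraries labelled *SNAI1*-KO, *FGFR1*, *FGFRL1*, *FGF1* and *FGF5* are lower, and the WT point that lies high for *FGFR1* and *FGFRL1* is WT-2.

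For *FGFR2*, *FGFR3* and *FGFR4*, which were higher, and *FGF1*, which was lower, the DNA ahead of the start site is shown as context, in GRCh38.p14 windows from RefSeq that cover 250 bases before to 50 bases after an annotated start. Such windows were searched for 8 of the 10 genes, 17 windows in all. No window of *FGFR1* or *FGF9* was searched, so the motif was not tested for these genes. The letters searched were CAGGTG and its reverse complement CACCTG, the E-box form that SNAI1 is known to bind, on both strands. They were found in 4 of the 17 windows, in 3 of the 8 genes, and in 7231 of all 35116 windows (20.6%). The genes shown include all 3 with the motif, *FGFR2*, *FGFR4* and *FGF1*. *FGF2* and *FGF5*, which were also called, had windows without the motif and are not shown. Each stretch is read 5′ to 3′ on the strand of the gene, ends at the first base ahead of the earliest annotated start in gencode, and has the motif in capitals. It holds 236 bases for *FGFR2* (chr10:121598459-121598694, minus strand, 78.0% G+C), 250 for *FGFR3* (chr4:1793043-1793292, plus strand, 86.8% G+C), 240 for *FGFR4* (chr5:177086665-177086904, plus strand, 80.0% G+C) and 250 for *FGF1* (chr5:142698071-142698320, minus strand, 44.8% G+C). The motif of *FGFR2* lies in the window of an alternative start and is shown with 12 bases on either side (chr10:121594110-121594139). That short stretch lies within the annotated gene and overlaps 4 gencode exons, while the other stretches overlap 0. A match describes the letters and not a site in use.
FGFR2: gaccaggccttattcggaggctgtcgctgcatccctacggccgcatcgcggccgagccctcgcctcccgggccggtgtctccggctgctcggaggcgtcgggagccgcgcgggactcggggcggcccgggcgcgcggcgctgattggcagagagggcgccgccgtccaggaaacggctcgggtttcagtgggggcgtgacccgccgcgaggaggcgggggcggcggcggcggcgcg
FGFR2 alternative start: gtctggtggtatCACCTGggactctgaggt
FGFR3: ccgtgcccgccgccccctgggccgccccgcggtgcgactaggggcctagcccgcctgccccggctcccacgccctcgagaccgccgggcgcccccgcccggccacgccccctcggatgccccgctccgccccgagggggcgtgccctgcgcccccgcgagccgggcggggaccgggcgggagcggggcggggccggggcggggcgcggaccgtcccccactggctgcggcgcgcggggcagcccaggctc
FGFR4: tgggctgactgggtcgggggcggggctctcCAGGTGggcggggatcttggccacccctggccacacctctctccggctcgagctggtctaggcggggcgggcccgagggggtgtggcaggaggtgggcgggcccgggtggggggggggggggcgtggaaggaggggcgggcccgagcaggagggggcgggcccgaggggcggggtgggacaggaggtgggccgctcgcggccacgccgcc
FGF1: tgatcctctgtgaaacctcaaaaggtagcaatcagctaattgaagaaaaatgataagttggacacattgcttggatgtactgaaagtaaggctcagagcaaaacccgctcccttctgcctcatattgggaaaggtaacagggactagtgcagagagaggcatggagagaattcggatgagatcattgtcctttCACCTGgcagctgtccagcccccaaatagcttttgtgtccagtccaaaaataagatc

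Among the receptors, *FGFR2*, whose splice forms are known to differ between epithelia and mesenchyme, changed most. It spans chr10:121478332-121598458 on the minus strand, and none of its exon bases is shared with another gene. In replicates 1 to 3 it stood at 0.0493, 0.114 and 0.103 CPM in WT, at 37.9, 35.5 and 34.3 CPM in CS16 and at 49.2, 50.4 and 48.5 CPM in CS19. The WT values are 1, 2 and 2 counts, under the limit that a count of 0 allows, whereas each of the other libraries held at least 744 counts. With 5 counts in WT in all, *SNAI1*-KO held 492.4 times as much *FGFR2* as WT per effective library size, with a 95% exact counting interval of 210.9 to 1517 (fitted log2 fold change 8.84 ± 0.34 SE, adjusted p = 1.96e-09 in edgeR's quasi-likelihood test).

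*FGFR3*, the receptor known for restraining growth of cartilage and for mutations in bladder cancer, lies at chr4:1793293-1808872 on the plus strand. It was present at a low level in WT (2.42, 4.62 and 2.36 CPM) and reached 61.3, 61.2 and 67.7 CPM in CS16 and 40.2, 39.1 and 36.6 CPM in CS19. All CS16 values lay above all CS19 values, and both clones lay far above WT. The difference between *SNAI1*-KO and WT was 16.3-fold (log2 fold change 4.03 ± 0.34 SE, adjusted p = 1.08e-06 in edgeR's quasi-likelihood test).

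*FGFR4*, which with KLB serves as the receptor of FGF19 in liver, lies at chr5:177086905-177098144 on the plus strand. Its levels were 2.17, 3.31 and 1.39 CPM in WT, 25.3, 29.9 and 31.3 CPM in CS16 and 27.1, 25.2 and 26.5 CPM in CS19. The clones overlapped with each other and not with WT. *FGFR4* was 12.1-fold higher in *SNAI1*-KO (log2 fold change 3.59 ± 0.27 SE, adjusted p = 3.48e-07 in edgeR's quasi-likelihood test).

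*FGFR1*, the main receptor of mesenchymal cells and one that is amplified in part of breast cancers, is on the minus strand of chromosome 8, from 38400215 to 38468834. Of its exon bases, 3.05% are shared with 2 genes on the opposite strand, and strand was not used in the counting. It stood at 124.0, 272.9 and 129.5 CPM in WT, at 67.4, 63.1 and 67.1 CPM in CS16 and at 58.7, 62.0 and 54.6 CPM in CS19. The lowest WT library thus held more than the highest library labelled *SNAI1*-KO, and WT-2 held more than either of the other WT libraries. *FGFR1* was 2.83-fold lower (log2 fold change -1.50 ± 0.22 SE, adjusted p = 0.000107 in edgeR's quasi-likelihood test), while without WT-2 it was at -1.03 on the log2 scale (edgeR adjusted p = 2.12e-06).

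*FGFRL1*, the receptor without a kinase, lies 766 kb from *FGFR3* on chromosome 4, at chr4:1009936-1026898 on the plus strand. It held 57.6, 144.6 and 68.2 CPM in WT, 36.0, 27.5 and 35.6 CPM in CS16 and 24.6, 30.2 and 25.3 CPM in CS19. As for *FGFR1*, the groups did not overlap and WT-2 was the highest library. *FGFRL1* was 3.02-fold lower (log2 fold change -1.59 ± 0.26 SE, adjusted p = 0.000213 in edgeR's quasi-likelihood test), with a log2 fold change of -1.08 without WT-2.

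**Figure D2:**
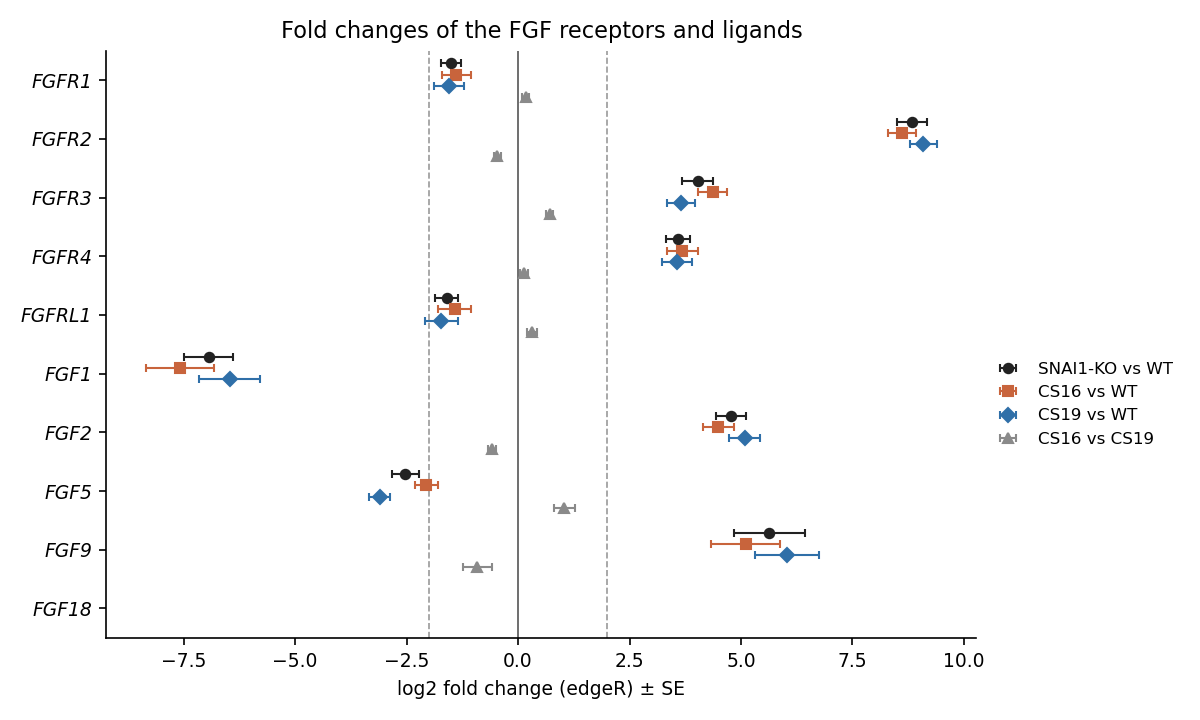
log2 fold change ± SE (horizontal axis, edgeR) of each FGF receptor and ligand in *SNAI1*-KO against WT, in each clone against WT and in CS16 against CS19. Dashed lines mark the fold cut-off of 2 on the log2 scale. *FGF18* was not tested and has no point, nor has *FGF1* between the clones. *FGFR2*, *FGF1* and *FGF9* had 1 to 5 counts in 1 group, so their fitted values depend on the prior count. *FGFR2* lies furthest to the right in every comparison with WT, and no difference between the clones reaches the cut-off.

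To compare levels between genes, counts were divided by exon length and scaled to the same total in every library (TPM). The exon length is that of all annotated exons of a gene together, so a gene with many annotated forms, such as *FGFR1* with 17201 bases or *FGFR2* with 18813 bases against 4848 for *FGFR3*, gets a lower TPM for the same count. In WT, *FGFRL1* had the highest level of the 10 genes at 68.0 ± 40.5 TPM and *FGFR1* followed at 33.5 ± 18.5 TPM (SD, n = 3), and the libraries of these neighbours in the order overlapped through WT-2. In WT-1 and WT-3, *FGFRL1* stood at 46.0 and 43.3 TPM, apart from *FGFR1* at 25.0 and 20.8 TPM. *FGF5* came next at 6.71 ± 1.45 TPM, apart from its neighbours on both sides. *FGF1* at 2.58 ± 0.846, *FGFR3* at 2.12 ± 1.03, *FGFR4* at 1.58 ± 0.788, *FGF18* at 0.583 ± 0.537 and *FGF2* at 0.387 ± 0.139 TPM followed, with overlap between neighbours among these 5 genes. *FGFR2* and *FGF9* were last at 0.0150 and 0.0135 TPM and overlapped. In WT-1 and WT-3 alone, *FGFR3* and *FGFR4* were the only neighbours in the order that overlapped, *FGF1* stood above *FGFR3* (2.68 and 3.38 against 1.73 and 1.34 TPM), *FGF18* fell to the place after *FGF2* with a mean of 0.285 TPM, and *FGF9* was at 0.

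By CPM, with no division by length, *FGFR1* was first in each group, at 175.5 ± 84.4 in WT, 65.9 ± 2.37 in CS16 and 58.4 ± 3.71 in CS19 (SD, n = 3), so the gene named first depends on the exon lengths used. In CS16 the order by TPM was led by *FGFR3* at 40.8 ± 5.59 TPM, above *FGFRL1* at 24.0 ± 6.12 TPM and *FGFR4* at 18.6 ± 1.65 TPM, of which the latter pair overlapped. *FGFR1* at 12.0 ± 1.91, *FGF2* at 8.64 ± 1.02 and *FGFR2* at 5.98 ± 1.02 TPM followed, each apart from the next. *FGF5*, *FGF9*, *FGF18* and *FGF1* were lowest, from 1.50 ± 0.294 down to 0.00870 ± 0.0151 TPM. In CS19, also by TPM, *FGFR3* at 24.3 ± 3.32, *FGFRL1* at 18.8 ± 3.70 and *FGFR4* at 16.6 ± 1.41 TPM led with overlap between neighbours. Then came *FGF2* at 12.5 ± 0.673, *FGFR1* at 10.4 ± 1.65 and *FGFR2* at 7.98 ± 0.931 TPM, again with overlap between neighbours, and *FGF9* at 0.933 ± 0.276 TPM stood above *FGF5* at 0.705 ± 0.0179 TPM.

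Of the summed TPM of *FGFR1* to *FGFR4*, *FGFR1* made up 89.8% ± 1.31 in WT, 15.5% ± 0.842 in CS16 and 17.4% ± 0.823 in CS19 (SD, n = 3). In this share WT-2 was close to the other WT libraries, with 90.6% against 88.3% and 90.6%. *FGFR3* made up 5.80% ± 0.337 in WT, 52.7% ± 0.830 in CS16 and 40.9% ± 0.746 in CS19. *FGFR4* went from 4.31% ± 1.08 to 24.1% ± 1.80 and 28.1% ± 1.28, and *FGFR2* from 0.0441% ± 0.0187 to 7.71% ± 0.740 and 13.5% ± 0.344. Neither clone overlapped with WT for any of the 4 shares. The size of the shares depends on the exon lengths. Of summed CPM, *FGFR1* made up 96.9% ± 0.421 in WT, 33.9% ± 0.999 in CS16 and 33.8% ± 1.15 in CS19, and *FGFR3* 1.76% ± 0.117, 32.7% ± 0.968 and 22.3% ± 0.512. *FGFR2* then made up 0.0520% ± 0.0217, 18.5% ± 1.32 and 28.6% ± 0.560, and *FGFR4* 1.30% ± 0.341, 14.9% ± 1.44 and 15.2% ± 0.871. By CPM, *FGFR1* led in 5 of the 6 libraries labelled *SNAI1*-KO, and *FGFR2*, the smallest of the 4 by TPM, lay above *FGFR4* in both clones and above *FGFR3* in CS19. The summed level of the 4 genes was 22.9 to 60.4 TPM in WT, 66.5 to 84.2 TPM in CS16 and 51.0 to 64.6 TPM in CS19, so that CS19 overlapped with WT. That overlap rested on WT-2, since WT-1 and WT-3 stood at 28.3 and 22.9 TPM, under every library of both clones.

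Among the ligands, *FGF2*, or basic FGF, which signals through the c forms of the receptors and has no classical secretion signal, lies at chr4:122826708-122898236 on the plus strand. It stood at 0.838, 0.456 and 1.23 CPM in WT, at 18.6, 19.1 and 18.6 CPM in CS16 and at 28.8, 25.8 and 29.6 CPM in CS19. The 3 groups did not overlap with each other. *FGF2* was 27.4-fold higher in *SNAI1*-KO (log2 fold change 4.78 ± 0.34 SE, adjusted p = 2.77e-07 in edgeR's quasi-likelihood test). Its exons share 804 bases (11.9%) with *NUDT6* on the opposite strand, whose reads there cannot be told apart from its own, and *NUDT6* stood at 9.97 ± 1.27 CPM in WT and 6.28 ± 0.978 CPM in *SNAI1*-KO.

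*FGF1*, or acidic FGF, which binds all 4 receptors, lies at chr5:142592178-142698070 on the minus strand. Its counts were 78, 43 and 119 in WT, 0, 1 and 0 in CS16 and 2, 0 and 1 in CS19, which is 3.85, 2.45 and 6.11 CPM in WT and at most 0.0909 CPM in the others. Every library labelled *SNAI1*-KO was thus at or under 3 counts. Per effective library size, WT held 278.5 times as much as CS16 (95% exact counting interval 49.5 to 11047) and 105.6 times as much as CS19 (35.7 to 515.7). The adjusted p of *SNAI1*-KO against WT was 5.80e-07 in edgeR's quasi-likelihood test.

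*FGF5*, known as the signal that ends hair growth, lies at chr4:80266639-80336680 on the plus strand and shares 2.28% of its exon bases with a gene on the same strand. It was the main ligand in WT with 13.6, 12.4 and 11.0 CPM, against 2.84, 3.63 and 2.23 CPM in CS16 and 1.36, 1.30 and 1.51 CPM in CS19. The 3 groups did not overlap. *FGF5* was 5.76-fold lower in *SNAI1*-KO (log2 fold change -2.53 ± 0.31 SE, adjusted p = 2.47e-05 in edgeR's quasi-likelihood test).

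*FGF9*, a ligand mostly of FGFR3 and the c forms of other receptors, lies at chr13:21671073-21704498 on the plus strand. It had 0, 1 and 0 counts in WT, 20, 18 and 14 in CS16 and 43, 27 and 41 in CS19, which is 0.557 to 1.95 CPM in both clones. Its level was thus low in absolute terms in every group. *SNAI1*-KO held 65.7 times as much as WT (95% exact counting interval 11.6 to 2611), with an adjusted p of 7.36e-05 in edgeR's quasi-likelihood test. The single WT count was in WT-2, so without that library WT was at 0.

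*FGF18*, of the same subfamily as *FGF8* and *FGF17*, lies at chr5:171419647-171457626 on the plus strand and shares 16.7% of its exon bases with an unnamed gene on the same strand. Its counts were 5, 12 and 2 in WT, 4, 4 and 1 in CS16 and 2, 0 and 2 in CS19. CS16 overlapped with WT, and the CS19 libraries held no more counts than WT-3, the lowest of WT. No fold is given at this depth.

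Of the summed TPM of the 5 ligands, *FGF5* held 64.8% ± 7.76 and *FGF1* 25.7% ± 10.5 in WT, while *FGF2* held 3.84% ± 1.63 (SD, n = 3). In CS16 *FGF2* held 79.4% ± 4.38 and in CS19 87.9% ± 1.72, with *FGF5* at 13.8% ± 2.47 and 4.96% ± 0.285 and *FGF1* at 0.0861% and 0.168%. The summed level of the ligands changed far less than their make-up, with 9.11 to 11.4 TPM in WT, 10.1 to 12.4 TPM in CS16 and 13.4 to 15.3 TPM in CS19.

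To see whether each clone shows the same pattern, CS16 and CS19 were each compared with WT in a fit of its own. Both comparisons use the same 3 WT libraries, so they are not independent. In CS16 against WT, 7 of the 9 genes tested were called, beside 27.1% of the 18611 genes tested, and in CS19 against WT also 7 of 9, beside 26.4% of 18935. In each, 4 of the 7 called genes passed the filter only through the group in which they were high. The log2 fold changes in CS16 and CS19 were 8.61 ± 0.31 and 9.09 ± 0.30 for *FGFR2*, 4.37 ± 0.32 and 3.66 ± 0.32 for *FGFR3*, 3.68 ± 0.35 and 3.56 ± 0.34 for *FGFR4*, and 4.49 ± 0.35 and 5.08 ± 0.35 for *FGF2* (SE). For *FGFR1* they were -1.39 ± 0.33 and -1.55 ± 0.33 and for *FGFRL1* -1.42 ± 0.37 and -1.72 ± 0.36. The adjusted p of *FGFRL1* in CS16 was 0.0131 in edgeR's quasi-likelihood test and 0.0622 without CS16-2. *FGF5* was at -2.06 ± 0.26 and -3.10 ± 0.23, and in CS16 it lay so near the fold cut-off that its call was lost without CS16-3 (-1.89) or WT-1 (-1.99) and with no filter on low counts (-1.98).

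The clones were then compared directly. In CS16 against CS19, 8 of the 10 genes were tested and 0 were called by edgeR's quasi-likelihood test or by DESeq2, beside 1.13% of the 17538 genes tested. An unadjusted p below 0.05 was found for 7 of the 8, beside 37.5% of all genes, and an adjusted p below 0.05 for 4, beside 27.4% of all genes. *FGFR3* was 1.64-fold higher in CS16 (log2 fold change 0.71 ± 0.08 SE, adjusted p = 1.53e-05 in edgeR's quasi-likelihood test) and *FGF5* 2.05-fold higher (1.04 ± 0.23, edgeR adjusted p = 0.00491). *FGFR2* was 1.38-fold lower in CS16 (-0.46 ± 0.07, edgeR adjusted p = 0.000360) and *FGF2* 1.50-fold lower (-0.59 ± 0.09, edgeR adjusted p = 0.000226). When the spread was shared with the WT libraries in 1 fit, the edgeR adjusted p was 0.149 for *FGFR3*, 0.146 for *FGFR2*, 0.260 for *FGF2* and 0.0385 for *FGF5*. *FGF9* was at -0.91 ± 0.32 with an edgeR adjusted p of 0.0504, and *FGFR1*, *FGFR4* and *FGFRL1* at 0.17, 0.13 and 0.30 with edgeR adjusted p of 0.101, 0.339 and 0.0607.

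Of the 22 FGF genes looked at, 17 had more than 3 counts in at least 1 library. Outside the ligands above, 13 are secreted, and 2 of these were tested and both were called higher, beside 12.6% of all genes. Both had few counts in WT and passed the filter on low counts through the libraries where they were high, so their count says nothing about the 11 not tested. *FGF8*, a signal of early embryonic patterning, had 1, 3 and 1 counts in WT, 7, 9 and 17 in CS16 and 12, 11 and 14 in CS19 (log2 fold change 2.41 ± 0.50 SE, adjusted p = 0.00121 in edgeR's quasi-likelihood test), and was at 3.15 without WT-2. *FGF17* had 4, 8 and 4 counts in WT, 24, 17 and 37 in CS16 and 30, 40 and 30 in CS19 (2.13 ± 0.40, edgeR adjusted p = 0.000665), and its log2 fold change was 1.92 without WT-1 and 1.97 without WT-3. Both are of one subfamily and both were low in every library, *FGF17* reaching at most 1.73 CPM. *FGF22*, a ligand of synapse formation, had 30 counts in WT-2 against 5 and 1 in the other WT libraries and 4 to 7 elsewhere. *FGF7*, *FGF19*, *FGF20*, *FGF21* and *FGF23* had 9 counts at most in any library, and *FGF4* and *FGF10* had 0 in all of them.

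The 4 intracellular FGF genes encode proteins that bind sodium channels and do not act through the receptors. *FGF13* had 0 counts in every WT library, 120, 126 and 154 in CS16 and 1, 6 and 8 in CS19. It was at least 114.9-fold higher in CS16 than in WT, against a floor of 3 counts over the group, and at least 3.79-fold higher in CS19. *FGF14* moved the other way, with 53, 24 and 36 counts in WT and 1 count in the 6 other libraries together, a ratio of 280.3 (95% exact counting interval 49.3 to 11168, adjusted p = 4.74e-07 in edgeR's quasi-likelihood test). Both passed the filter only through the libraries where they were high. *FGF11* and *FGF12* had 12 counts at most and were not tested.

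FGF receptors work with partners at the cell surface. Of 11 such genes, 9 were tested, with 3 called higher and 3 lower, beside 12.6% and 14.3% of all genes. All 6 of these passed the filter only through the group in which they were high, so their count is a description. *NCAM1*, an adhesion molecule of neurons that can activate FGF receptors, had 2, 0 and 0 counts in WT and 903 to 1258 in the libraries labelled *SNAI1*-KO, a ratio of 1298 (95% exact counting interval 359.2 to 10721). *CDH2*, or N-cadherin, which is known to hold FGFR1 at the surface, had 34, 6 and 36 counts in WT, 669, 653 and 789 in CS16 and 1640, 1968 and 2694 in CS19 (log2 fold change 5.45 ± 0.63 SE, adjusted p = 1.51e-05 in edgeR's quasi-likelihood test).

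The FLRT proteins, which bind FGF receptors from within the same membrane, moved in different directions. *FLRT3* went from 0.444, 0.114 and 0.0513 CPM in WT to 75.2, 68.3 and 66.0 CPM in CS16 and 113.6, 138.1 and 126.7 CPM in CS19 (log2 fold change 8.84 ± 0.56 SE, adjusted p = 8.89e-08 in edgeR's quasi-likelihood test). The WT values of *FLRT3* were 9, 2 and 1 counts, so the size of this fold rests on few counts, mostly in WT-1. *FLRT2* went from 41.6, 38.1 and 33.9 CPM in WT to at most 0.130 CPM in any other library (-9.26 ± 0.38, edgeR adjusted p = 2.93e-09). *FLRT1* had a log2 fold change of -2.74 ± 0.63, which rested on WT-2 with 130 counts against 23 in WT-1 and 18 in WT-3, and was -1.15 without it. *ANOS1*, the Kallmann syndrome protein that binds FGFR1 with heparan sulfate, had 1733, 1026 and 1594 counts in WT and 0 in all libraries labelled *SNAI1*-KO, which made it at least 3599-fold lower. *KLB*, the co-receptor for FGF19, did not pass (log2 fold change -0.19 ± 0.32 SE, adjusted p = 0.626 in edgeR's quasi-likelihood test).

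Heparan sulfate is made by chain-building and sulfating enzymes and trimmed by sulfatases outside the cell. Of 18 genes of this kind, 17 were tested, with 5 called higher and 4 lower, again beside 12.6% and 14.3% of all genes. Of the 9 called, 6 passed the filter only through the group in which they were high, and of the 10 genes that did not depend on 1 group, 1 was called higher and 2 lower. Both sulfatases, which remove 6-O-sulfate that FGF signalling needs, were among those higher. *SULF1* had 0 counts in every WT library, 1139, 894 and 1183 in CS16 and 575, 689 and 782 in CS19, and was at least 707.1-fold higher. *SULF2* had 15, 34 and 12 counts in WT and 1195 to 1870 in the others (log2 fold change 5.85 ± 0.38 SE, adjusted p = 1.23e-07 in edgeR's quasi-likelihood test), and was at 6.51 without WT-2.

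*HS6ST2*, an enzyme that adds 6-O-sulfate, had 1, 0 and 0 counts in WT and 1984 to 3409 in the others, a ratio of 5915 (95% exact counting interval 1061 to 233632). *NDST4*, an N-sulfating enzyme, had 0 counts in WT, 67, 66 and 72 in CS16 and 11, 1 and 6 in CS19, so it was at least 58.9-fold higher in CS16 and at least 4.55-fold higher in CS19. *HS3ST1*, which makes the 3-O-sulfated site for antithrombin, had 542, 526 and 615 counts in WT and 2 counts in the 6 other libraries together, a ratio of 2087 (577.0 to 17251). *NDST3* was lower with a log2 fold change of -2.92 ± 0.39 SE (adjusted p = 4.72e-05 in edgeR's quasi-likelihood test). *NDST1*, the widely expressed form, was at -2.46 ± 0.35, with 9364 counts in WT-2 against 3609 in WT-1 and 3172 in WT-3, and was at -1.68 without WT-2. *EXT1*, a member of the pair that polymerizes the chain, was lower in all 6 libraries, at 64.3 to 78.1 CPM against 371.1 to 401.1 CPM in WT (-2.46 ± 0.11, edgeR adjusted p = 7.83e-09), while its partner *EXT2* did not pass (-0.24 ± 0.17, edgeR adjusted p = 0.236, and -0.38 with 0.0362 without WT-2).

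Inside the cell, the 12 adaptors and transducers next to the receptors were all tested, and 1 was called, *SHC1*, an adaptor of many tyrosine kinases, at 121.8, 175.2 and 134.9 CPM in WT and 26.2 to 32.1 CPM in the others (log2 fold change -2.26 ± 0.14 SE, adjusted p = 8.03e-08 in edgeR's quasi-likelihood test). Their median log2 fold change was -0.42, beside -0.00404 over all genes, and by adjusted p alone 3 were higher and 7 lower. Over all genes 14.3% were called lower and 63.7% passed by adjusted p in either direction. The docking protein *FRS2* itself was at 39.2 CPM in WT and 31.4 CPM in *SNAI1*-KO and did not pass (-0.32 ± 0.17, edgeR adjusted p = 0.121), but did so without WT-2 (-0.52, edgeR adjusted p = 0.00103).

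The list of feedback genes held 15 inhibitors and targets, such as Sprouty and SPRED proteins, phosphatases of ERK and ETS factors of the *ETV4* group. Their transcription is known to rise with ERK activity, whichever receptor or mutation starts it. All 15 were lower by adjusted p and 13 were called lower, with a median log2 fold change of -4.08, where 63.7% of all genes passed by adjusted p in either direction and 14.3% were called lower. The summed level of the 15 genes was 2030, 2412 and 2140 CPM in WT, 177.5, 166.4 and 159.7 CPM in CS16 and 96.0, 94.5 and 96.8 CPM in CS19, with *CCND1* the most abundant in WT and CS16 and *SPRED1* in CS19. *SPRY4*, *DUSP6* and *ETV5* passed the filter only through WT, and of the other 12, 10 were called lower, with a median of -3.37. Without WT-2, 11 of the 15 were called, as *SPRED2* (-1.70) and *EGR1* (-1.46) fell short of the fold cut-off.

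*SPRY4*, a Sprouty inhibitor of RAS signalling, stood at 67.7, 129.1 and 59.8 CPM in WT and at 0.0474 CPM on average in *SNAI1*-KO, where 3 counts were the most in any library (log2 fold change -10.61 ± 0.44 SE, adjusted p = 3.17e-09 in edgeR's quasi-likelihood test). *DUSP6*, a phosphatase of ERK, stood at 154.8, 82.9 and 167.3 CPM in WT and at 0.0454 to 0.343 CPM in the others (-9.19 ± 0.35, edgeR adjusted p = 1.92e-09). *ETV5*, an ETS factor, stood at 84.3, 63.6 and 88.9 CPM in WT and at 0.0955 to 1.03 CPM in the others (-7.59 ± 0.43, edgeR adjusted p = 4.02e-08). WT-2 was highest for *SPRY4* and lowest for *DUSP6* and *ETV5*, and no library labelled *SNAI1*-KO came near any WT library for these genes. The 2 not called were *SPRY1* at -0.79 ± 0.15 and *IL17RD* at -1.29 ± 0.19.

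Receptor forms b and c differ by 1 exon, and gene counts cannot separate them. Of 9 splicing factors known to act on that choice, 8 were tested and 1 was called lower, beside 14.3% of all genes. *ESRP2*, one of the pair that directs the epithelial b form of *FGFR2*, stood at 5.67, 8.39 and 5.75 CPM in WT and at 0.525 to 1.32 CPM in the others (log2 fold change -2.65 ± 0.27 SE, adjusted p = 5.65e-06 in edgeR's quasi-likelihood test). *ESRP1*, the other of the pair, had at most 4 counts in any library and was not tested. The median log2 fold change of the 8 was 0.08.

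**Figure D3:**
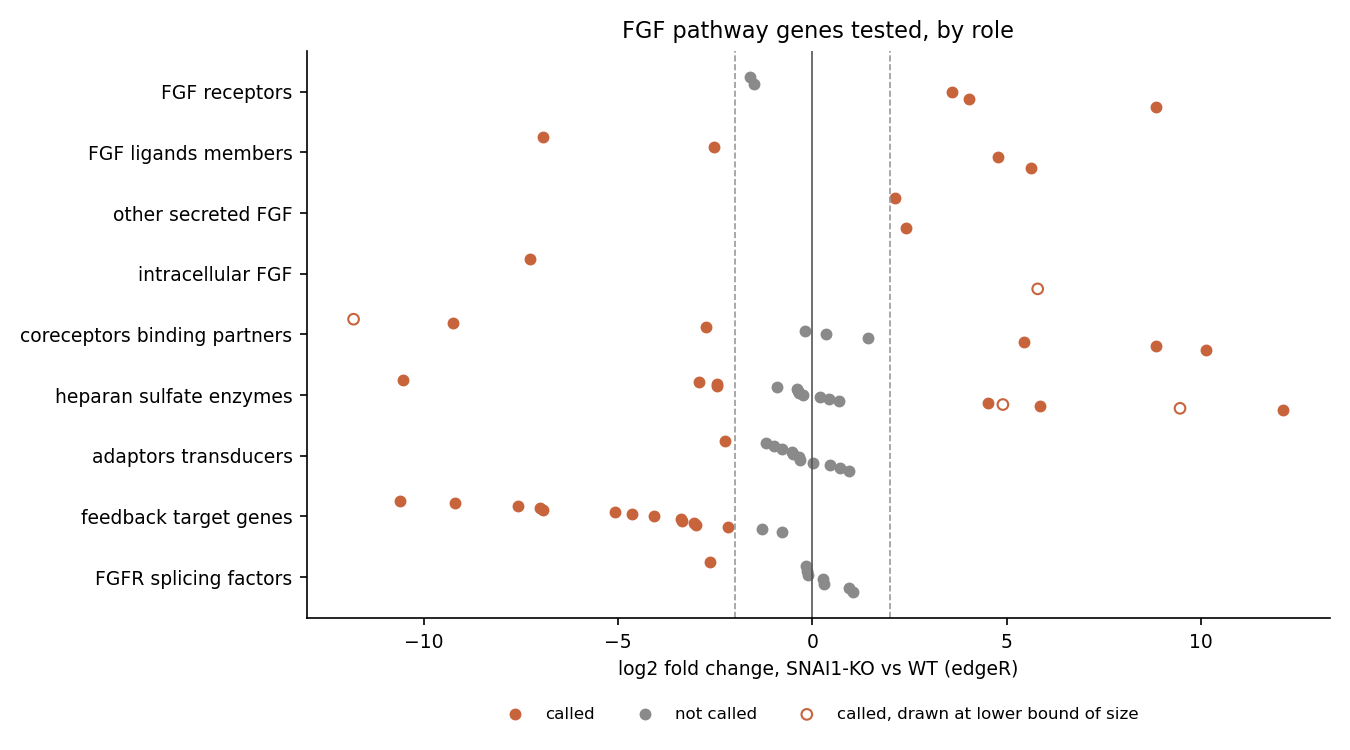
log2 fold change in *SNAI1*-KO against WT (horizontal axis, edgeR) of the tested genes of each list, 1 point per gene, orange where called. Open points are drawn at their lower bound of size because a whole group was at 0, and genes with 1 to 3 counts in a group are drawn at the fitted value, which depends on the prior count. The 15 feedback and target genes all lie below 0, from -0.79 to -10.61, and the other lists spread to both sides or hold few points.

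The nearest protein-coding genes that were tested on either side were read for position. *FGF1* and *FGFRL1* lay between genes that were also lower, *FGF1* between *SPRY4* at a log2 fold change of -10.61 and *ARHGAP26* at -1.94, and *FGFRL1* between *IDUA* at -2.91 and *SPON2* at -3.33. *FGFR4* lay between *ZNF346* at 0.58 and *NSD1* at 0.82, both higher by less than the fold cut-off. Next to *FGFR2*, *WDR11* was at -0.06 and *ATE1* at -0.45, and next to *FGFR3*, which was higher, *TACC3* was at -1.30 and *LETM1* at 0.04. Without WT-2, *IDUA* was at -1.75, *WDR11* at -0.29, *TACC3* at -0.37 and *LETM1* at 0.55, each with an adjusted p below 0.05 in edgeR's test. *FGFR1* lay between *LETM2* at 0.16 and *TACC1* at -1.77, *FGF2* between *BBS12* at 0.58 and *NUDT6* at -0.67, and *FGF5* between *PRDM8* at -4.29 and *PRKG2* at 1.20. On one side of *FGF9*, *MICU2* was at -2.35.

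Among the 19630 other genes tested, those closest in pattern to the receptor and the ligand with the highest mean TPM were found by the root mean square difference of centred log2 CPM over the 9 libraries. For *FGFRL1* they were *PLCB3* (0.0895), *ACTB* (0.117) and *SQSTM1* (0.121), with log2 fold changes in *SNAI1*-KO against WT of -1.54, -1.53 and -1.75. For *FGF2* they were *COCH* (0.162), *CYP2J2* (0.219) and *SH3BGRL2* (0.221), with log2 fold changes of 4.57, 4.53 and 4.90.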

How the data were processed

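RNA of 9 libraries was depleted of ribosomal RNA and made into stranded libraries. Per the labels and file headers, the authors used Trimmomatic 0.36 for trimming, STAR 2.7.2b for alignment to GRCh38 and featureCounts of Subread 2.0.0 for counting pairs on gencode 38 genes without regard to strand. Both mates had to align, chimeric pairs were dropped, and mapping quality was 30 or more. The authors deposited raw counts per gene and library. Symbols came from gencode 44 (60463 of 60708 genes, 99.6%), and exon positions from the files. Motif windows came from RefSeq (GRCh38.p14). Pairs that map to several places are lost at this mapping quality.

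Counts were filtered with filterByExpr, normalized by TMM over the libraries and tested on all genes with edgeR 4.0.16 (quasi-likelihood) in R 4.3.3. CPM use TMM library sizes and TPM the exon lengths in the files. SE is the log2 fold change divided by the root of F. Counting intervals are exact (binomial, 95%), and a group at 0 was set to 3 counts for bounds. log2 CPM used a prior count of 2. The comparisons were *SNAI1*-KO with WT, each clone with WT, and CS16 with CS19. Tables and figures used Python 3.11.15 with scipy 1.17.1, matplotlib 3.10.9, numpy 2.4.6 and pandas 2.3.3. The fits were tested on simulated data.

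The 10 genes, the 9 pathway lists, the 11 marker lists (basal mesenchymal, 9p genes, luminal, embryonic kidney, neural, prostate, haematopoietic, melanocytic, hepatocyte, fibroblast, endothelial) and the tests were chosen with earlier results of these data known. Named genes were all members, *SNAI1*, up to 3 called genes per direction of each list by size, other FGF genes above 3 counts and the 3 nearest genes in pattern. *SULF2*, *EXT1*, *EXT2*, *KLB*, *FRS2*, *SPRED2*, *EGR1*, *SPRY1*, *IL17RD*, *FGFBP3*, *CCND1*, *SPRED1*, *NUDT6*, flanking genes, *ESRP1*, *FGF4* and *FGF10* were named after their values were seen. Alternatives were DESeq2 1.42.0, RLE, upper-quartile normalization, no filter, no fold-change cut-off, a shared fit of the 3 groups, the replicate number as a block, CPM for the order of levels and leaving out each library, with list counts, marker counts and the order of levels without WT-2, receptor shares by CPM and counts of genes that passed the filter only through 1 group added after the data were seen. Reads, isoforms, protein sequences and protein data were not analysed here, and some marker and neighbour values are not reported here.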

Additional observations from a re-analysis of the deposited data

Results flagged for a closer look

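Between the clones, 4 of the 64 FGF pathway genes tested differed in their change from WT past the fold cut-off, beside 1.13% of the 17538 genes tested, by edgeR's quasi-likelihood test of CS16 against CS19. *FGF13* and *NDST4* passed the filter on low counts only through CS16, where they were high, and of the 59 genes that did not depend on 1 clone, 2 differed. *FGF13* was 29.6-fold higher in CS16 (6.01 ± 0.122 against 0.189 ± 0.124 CPM, SD, n = 3, log2 fold change 4.89 ± 0.30 SE, edgeR adjusted p = 1.35e-07), with 0 counts in WT. *CCND1*, the cyclin of the G1 phase, was 7.93-fold higher in CS16 (89.2 ± 5.40 against 11.2 ± 1.00 CPM, 2.99 ± 0.09, edgeR adjusted p = 2.38e-10), both far under the 846.8 ± 201.1 CPM of WT. *NDST4* was 12.6-fold higher in CS16 (3.10 ± 0.214 against 0.247 ± 0.232 CPM, 3.66 ± 0.41, edgeR adjusted p = 2.24e-05). *FGFBP3*, which releases FGFs from heparan sulfate, was 4.45-fold lower in CS16 (1.40 ± 0.126 against 6.23 ± 0.346 CPM, -2.15 ± 0.17, edgeR adjusted p = 1.35e-06), and WT at 1.43 ± 0.338 CPM lay at the level of CS16. In each case all 3 libraries of one clone lay above all 3 of the other.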

How the results depend on the processing

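Of 482 log2 fold changes of the FGF receptors and ligands under the alternatives, 469 kept their direction and side of the call, 3 (*FGF5* in CS16 against WT) lost the call, 10 gained it when the fold cut-off was dropped, and 0 reversed. The number of members called in *SNAI1*-KO against WT stayed at 7 without each library in turn, and was 6 to 7 in CS16, 7 in CS19 and 0 between the clones. Calls over all genes numbered 5272, 5045, 4990 and 198 in the 4 comparisons in the order of the report. They were 5165 to 5963, 5176 to 5823, 5167 to 5743 and 224 to 258 without each library in turn, 8662, 7528, 7513 and 352 with no filter, and 12506, 10342, 10014 and 4814 with no fold cut-off, where 4 members passed between the clones. DESeq2 called 7662, 6880, 6871 and 215. With the replicate block there were 5220, 4943, 4921 and 201 calls and the same 7, 7, 7 and 0 calls among members. Libraries with the same number did not deviate together (correlations of -0.206 to 0.190, 1 of 9 above 0.1), so the numbers were not taken as pairs. In the order of levels, CPM in place of TPM left 6, 4 and 5 of the 10 genes in place in WT, CS16 and CS19, and leaving out each library left 6 to 8 in WT and 10 in each clone. DESeq2 and no filter put the median of all genes in CS16 against WT at -0.14 and -0.11, beside -0.03. Leaving out WT-1 or WT-3 took 1 call from the other secreted FGF genes, and leaving out any CS16 library 1 from the intracellular ones. Genes with a few counts, such as *FGF18*, are limited by depth.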
